A study of Mus musculus with 8 samples.

Results

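Integrins are receptors built from an alpha and a beta chain that hold cells to matrix proteins or to neighbouring cells. In bone marrow they keep hematopoietic stem and progenitor cells (HSPCs) in contact with vascular and stromal surfaces, and the beta 2 and beta 7 families guide mature leukocytes. The extracellular part binds a ligand only after talin and a kindlin have docked on the short beta tail, and integrin-linked kinase (Ilk), paxillin (Pxn) and vinculin (Vcl) then connect the receptor to actin. The 35 genes examined here were taken by name from the 54532 genes of the deposited table: 18 alpha subunits, 9 beta subunits, 2 talins, 3 kindlins and the 3 adaptors Ilk, Pxn and Vcl. No threshold on a measured value was used to choose them, but earlier results of these data were known when they were chosen.

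All 8 libraries came from C57BL/6 mice that carried floxed Zeb1 alleles and the Mx1-Cre transgene (Zeb1 fl/fl;Mx1-Cre+/-), in which Cre is switched on by interferon and so, after repeated pIpC injection, in many cell types besides blood cells. Bone marrow was taken from mice of 8 to 12 weeks, 14 days after the last pIpC dose, and Lin- C-KIT+ SCA-1+ (LSK) cells were sorted into an EpCAM+ and an EpCAM- fraction of 4 libraries each. Both fractions are Zeb1-/-, so every difference below lies between sorted parts of Zeb1-deleted marrow, and no undeleted control library was analysed here. The lineage stain used to discard mature cells included MAC1, which is the protein of the member Itgam. The table sums reads over whole genes and therefore cannot show the deleted part of Zeb1, whose summed level averaged 19.5 CPM (counts scaled to library size by the TMM method) in EpCAM+ and 11.9 CPM in EpCAM- libraries.

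Totals ranged from 14114491 to 17073546 counts a library, and the members together took 0.107 to 0.161% of the counts. Epcam, the gene of the sorted antigen, had 2818 to 3580 counts in EpCAM+ and 17 to 144 counts in EpCAM- libraries, with the highest EpCAM- value in replicate 1. Kit averaged 285 CPM in EpCAM+ and 208 CPM in EpCAM- cells, and 8 of the 9 LSK identity genes were higher in EpCAM+. The summed markers of neutrophils, of erythroid cells and of mast cells and basophils were on the other side. Those of neutrophils summed to 1100 to 1850 CPM in EpCAM+ and 11900 to 18600 CPM in EpCAM-. Those of erythroid cells summed to 2320 to 3860 and 4340 to 11100 CPM, and those of mast cells and basophils to 268 to 296 and 453 to 752 CPM. Of the 9 neutrophil markers 4 were lower (the primary granule genes Mpo, Elane, Prtn3 and Ctsg). Of the 8 erythroid markers 6 were lower and 1 higher, and of the 7 mast cell and basophil markers 4 were lower. Over all tested genes 21.8% were higher and 20.8% lower. Monocyte and macrophage sums overlapped, at 590 to 854 CPM in EpCAM+ and 474 to 1210 CPM in EpCAM-. Of the 9 tested markers in that list 1 was higher (Lyz2) and 3 were lower. The neutrophil, erythroid, mast cell and basophil sums were thus lower in EpCAM+, and the part of these cell types in the member differences was not tested. EpCAM+ replicates 1 and 4 stood apart from replicates 2 and 3 in genes of conventional dendritic cells type 1 (cDC1). The 8 cDC1 markers summed to 844 and 737 CPM against 115 and 238 CPM, while the EpCAM- libraries lay between 141 and 235 CPM. Nearly all of the EpCAM- sums came from Irf8 and Wdfy4. Xcr1, Clec9a, Batf3, Tlr3, Cadm1 and Wdfy4 were higher in every EpCAM+ library, replicates 2 and 3 included, than in any EpCAM- library. Irf8 and the scarce Cd8a were not. A fit without EpCAM+ replicates 1 and 4 is therefore not free of cDC1 signal. Nor was this order limited to cDC1 genes. In EpCAM+ replicates 1 to 4, Ms4a1 of the B cell list had 196, 21, 41 and 112 counts. Ccr2 of the monocyte list had 1548, 142, 506 and 1398, and Cldn7 of the epithelial list 873, 186, 302 and 662. Cd79b, Lyz2 and Krt18 of the same lists did not have this order. Plasma cell markers summed to 3980 CPM in EpCAM+ replicate 1 and to 389 to 674 CPM in the other EpCAM+ libraries. Of the stromal markers, Col1a1 and Col3a1 were at 0 in all 8 libraries. Of the 6 epithelial markers, Krt19 and Esrp1 were at 0 or 1 count, and the 4 tested (Cldn7, Krt8, Cdh1 and Krt18) were higher in EpCAM+. The epithelial markers summed to 203 to 254 CPM in EpCAM+ and 79.1 to 105 CPM in EpCAM-. Cldn7 averaged 31.9 against 0.662 CPM and Krt8 12.2 against 3.06 CPM. The part of these markers in the member values was not tested. Member calls and list counts are therefore also given below without EpCAM+ replicates 1 and 4 where these change them. In bulk RNA, a change in the share of cells of a type and a change in RNA per cell cannot be told apart.

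Upstream sequence was in the RefSeq promoter table (GRCm38.p6) for 25 of the 35 members, and 4 of these windows are shown as examples of genes that passed the test for a difference between the fractions: Itga3, Itga2 and Itgav, which rose, and Itga4, which fell. Each runs 5′ to 3′ along the gene and ends at the RefSeq start site, except that for Itga3 the 87 bases nearest to the start are left out because annotated exons reach into them. The windows lie at chr11:95076802-95076964 (minus strand, Itga3), chr13:114932101-114932350 (minus strand, Itga2), chr2:83724147-83724396 (plus strand, Itgav) and chr2:79255176-79255425 (plus strand, Itga4). Capitals mark exact matches, on either strand, to an E-box (CAGGTG or CACCTG, the letters that ZEB and Snail factors bind), to a RUNX motif (TGTGGT or ACCACA) or to a PU.1 core (GAGGAA or TTCCTC).
Itga3: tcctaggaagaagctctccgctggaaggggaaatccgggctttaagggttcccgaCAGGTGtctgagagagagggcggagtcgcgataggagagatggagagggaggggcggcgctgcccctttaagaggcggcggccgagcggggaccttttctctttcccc
Itga2: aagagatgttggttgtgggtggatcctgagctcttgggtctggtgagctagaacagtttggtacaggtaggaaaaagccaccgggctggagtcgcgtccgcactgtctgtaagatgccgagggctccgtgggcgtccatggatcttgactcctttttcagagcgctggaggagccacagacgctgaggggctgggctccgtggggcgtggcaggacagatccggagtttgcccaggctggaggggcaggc
Itgav: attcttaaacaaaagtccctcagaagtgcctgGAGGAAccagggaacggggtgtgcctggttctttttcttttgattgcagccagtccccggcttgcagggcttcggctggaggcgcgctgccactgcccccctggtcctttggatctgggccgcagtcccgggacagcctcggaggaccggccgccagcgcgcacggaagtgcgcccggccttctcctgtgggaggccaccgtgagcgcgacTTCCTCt
Itga4: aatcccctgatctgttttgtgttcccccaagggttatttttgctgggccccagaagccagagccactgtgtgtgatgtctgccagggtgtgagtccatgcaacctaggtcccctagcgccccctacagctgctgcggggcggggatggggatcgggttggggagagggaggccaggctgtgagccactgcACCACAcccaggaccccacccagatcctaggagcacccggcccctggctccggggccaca

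The Itga3 window held the E-box 195 bases before the start, the Itga4 window held the RUNX letters 60 bases before it, the Itgav window held the PU.1 core at 218 and at 7 bases, and the Itga2 window held none of these motifs. Among the 25 member windows of 250 bases, 6 held an E-box (Itga3, Itga9, Itga11, Itgb5, Itgb8 and Fermt3), 3 a RUNX motif (Itga4, Fermt3 and Ilk) and 8 a PU.1 core. Over the windows of all 27025 genes in the table the shares were 17.1%, 14.2% and 23.1%. The E-box genes had no common direction: Itga3 passed the test as higher, Itga9, Itgb5 and Fermt3 did not pass it, and Itga11 and Itgb8 had no counts. These matches are a description of letters and not evidence of binding.

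Of the 35 members, 25 had enough counts to be tested. Of these, 8 were higher and 1 was lower in EpCAM+ than in EpCAM- cells (edgeR quasi-likelihood test, adjusted p under 0.05 over all 13560 genes tested), and 16 did not pass. This is 36.0% of the tested members against 42.6% of all tested genes (21.8% higher and 20.8% lower), which is near the background and so no result about the members, and 8 of the 9 calls were on the higher side. The median log2 fold change (EpCAM+ over EpCAM-) was 0.26 over the tested members and 0.02 over all tested genes. For 7 members the EpCAM+ values lay wholly above the EpCAM- values and for 1 wholly below, where 20.1% and 20.0% of all tested genes (40.1% together) did not overlap. The calls fell on subunits: 6 of 13 tested alpha subunits and 2 of 7 tested beta subunits were higher, while the talin, the kindlin and the 3 adaptors that were tested did not pass. With upper-quartile scaling in place of TMM, 12 members were higher and 0 lower, and all genes split into 3642 higher and 2083 lower in place of 2961 and 2818, because that scaling moves the median of all genes from 0.02 to 0.11.

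Libraries that carried the same replicate number deviated together, and with the number as a block 13 members were higher and 2 lower, of 50.3% of all tested genes called (25.6% higher, 24.7% lower). The 6 genes that the block added were Itga9, Itgb2, Itgb7, Tln1 and Pxn on the higher side and Itgal on the lower side. Without EpCAM+ replicates 1 and 4, 6 members were higher and 2 were lower, where 26.2% of the 14043 genes tested in that fit were called (13% higher, 13.2% lower).

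**Figure D1:**
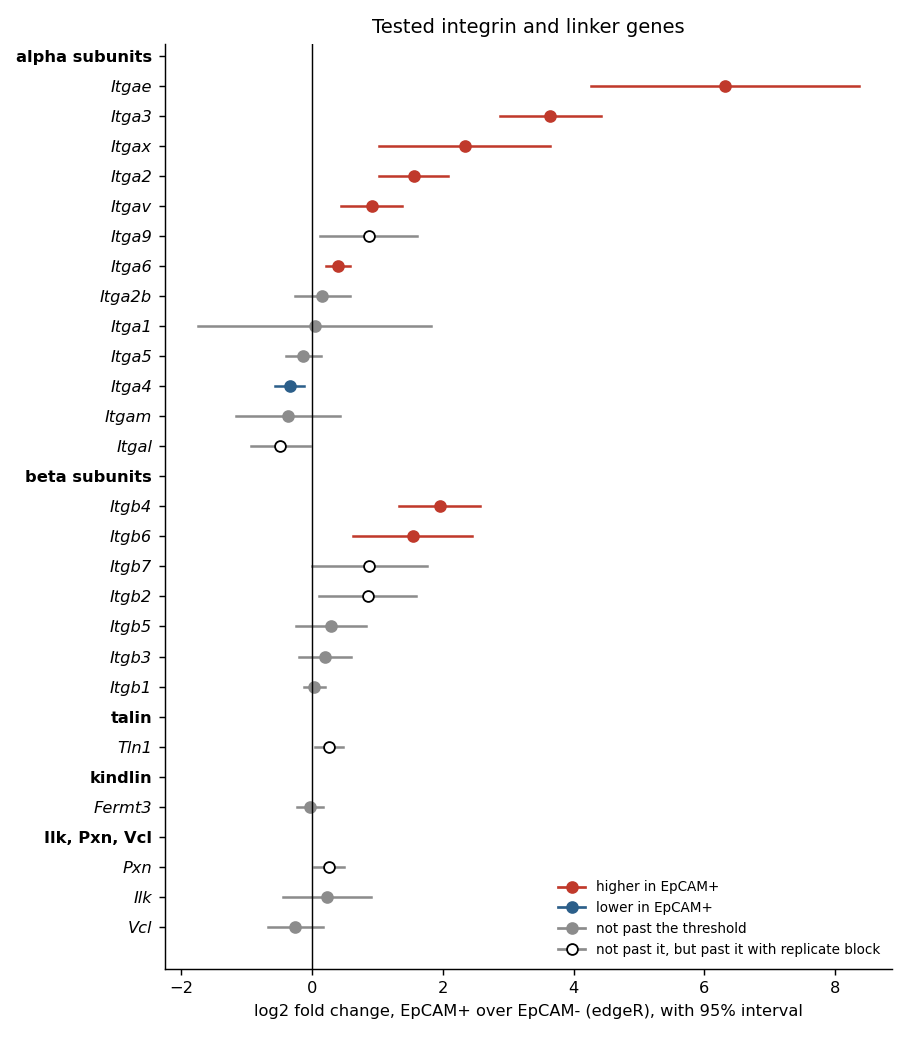
Log2 fold change (EpCAM+ over EpCAM-, horizontal axis) of the 25 tested genes, grouped by role, with 95% intervals from the edgeR fit. Red points passed the test as higher (8), the blue point as lower (1), and open points did not pass it but passed with the replicate block (6). Itgae lies farthest to the right at 6.31, and Itgb1 (0.03) and Fermt3 (-0.03) lie at 0.

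The laminin-binding subunits Itga3, Itga6 and Itgb4 were higher in EpCAM+ cells. Itga3 (ENSMUSG00000001507, chr11:95044474-95076801), which with Itgb1 forms a receptor for the laminins of basement membranes, had 62, 70, 77 and 41 counts in the EpCAM+ libraries and 5, 2, 7 and 3 counts in the EpCAM- libraries. The groups were far apart, and among the tested members only Itgae had a larger fold change. Both genes passed the count filter only through their EpCAM+ libraries, so this rank is a description. The levels were 3.75 ± 0.739 CPM against 0.29 ± 0.142 CPM (mean ± SD, n = 4 each), with a log2 fold change of 3.64 ± 0.35 (SE, edgeR adjusted p = 0.000165). Over the pooled libraries the ratio of summed Itga3 CPM was 12.8, with an interval of 7.85 to 22.4 that covers counting error only. Without EpCAM+ replicates 1 and 4 the log2 fold change was 3.78.

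Itga6 (chr2:71745616-71858416), the other laminin-binding alpha chain of blood progenitors and a partner of both Itgb1 and Itgb4, was expressed at a much higher level and shifted by much less. It had 65.7, 74.6, 71.3 and 71.4 CPM in EpCAM+ and 58.5, 48.1, 51.4 and 57.0 CPM in EpCAM- libraries. All EpCAM+ values lay above all EpCAM- values, with a log2 fold change of 0.40 ± 0.08 (SE, edgeR adjusted p = 0.00373). Itgb4 (chr11:115974709-116008412), the long-tailed beta chain that pairs only with Itga6 and anchors hemidesmosomes in epithelia, had 7.0, 7.6, 6.76 and 4.8 CPM in EpCAM+ and 2.50, 1.41, 1.77 and 1.03 CPM in EpCAM- libraries. The fractions did not overlap and the mean rose 3.86-fold (log2 1.95 ± 0.28, edgeR adjusted p = 0.000633). Within EpCAM- the highest Itgb4 value was in replicate 1, the library with the most Epcam counts (144). Both chains of the Itga6-Itgb4 receptor thus stood higher in EpCAM+ at the RNA level, in all 4 numbered pairs, by unequal amounts.

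Of the collagen receptors, Itga2 (chr13:114833081-114932100), the alpha chain of the platelet and epithelial collagen receptor, had 4.05, 4.71, 5.14 and 3.11 CPM in EpCAM+ against 1.62, 1.33, 1.23 and 1.62 CPM in EpCAM- libraries. The groups did not overlap, and the log2 fold change was 1.55 ± 0.24 (edgeR adjusted p = 0.000858). Its relative Itga1 ranged from 4 to 37 counts in EpCAM+ and from 0 to 30 in EpCAM-, and its interval ran from -1.75 to 1.82 on the log2 scale, so that no difference could be resolved. The remaining collagen-binding chains were at or near 0, with 0 counts of Itga11 in all 8 libraries and at most 1 count of Itga10 in any. Itga7, a laminin receptor of muscle, had 1 count in all 8 libraries together.

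Itgav and Itgb6, which as a pair bind latent TGF-beta, were also higher in EpCAM+. Itgav (chr2:83724397-83806916), the alpha chain shared by Itgb1, Itgb3, Itgb5, Itgb6 and Itgb8, had 14.6, 8.96, 11.8 and 9.99 CPM in EpCAM+ and 7.30, 7.18, 5.12 and 4.56 CPM in EpCAM- libraries. The fractions did not overlap, although EpCAM+ replicate 2 came close to EpCAM- replicates 1 and 2, and the log2 fold change was 0.91 ± 0.21 (edgeR adjusted p = 0.00664). Itgb6 (chr2:60598292-60722643), the epithelial partner of Itgav that helps to release TGF-beta, had 32, 42, 31 and 45 counts in EpCAM+ and 22, 5, 14 and 5 counts in EpCAM- libraries. These are low counts whose groups did not overlap as CPM (2.28 ± 0.501 against 0.767 ± 0.49 CPM), with a log2 fold change of 1.54 ± 0.41 (edgeR adjusted p = 0.0133). Without EpCAM+ replicates 1 and 4, Itgb6 kept a log2 fold change of 1.39 but no longer passed (adjusted p = 0.0864), and Itgav still did (log2 0.78, adjusted p = 0.046).

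The other beta partners of Itgav did not pass the test. Itgb8 had 0 counts in every library. Itgb5, which with Itgav binds vitronectin, had 10.6, 9.92, 19.0 and 19.8 CPM in EpCAM+ and 9.49, 14.1, 12.3 and 12.7 CPM in EpCAM- libraries. EpCAM+ replicates 3 and 4 were above the rest and replicates 1 and 2 were not, and the interval of the log2 fold change ran from -0.25 to 0.82. Itgb3 had 10.9, 13.0, 13.3 and 13.1 CPM in EpCAM+ and 11.1, 7.33, 11.5 and 13.8 CPM in EpCAM- libraries, which overlap (log2 0.20 ± 0.18, edgeR adjusted p = 0.39).

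**Figure D2:**
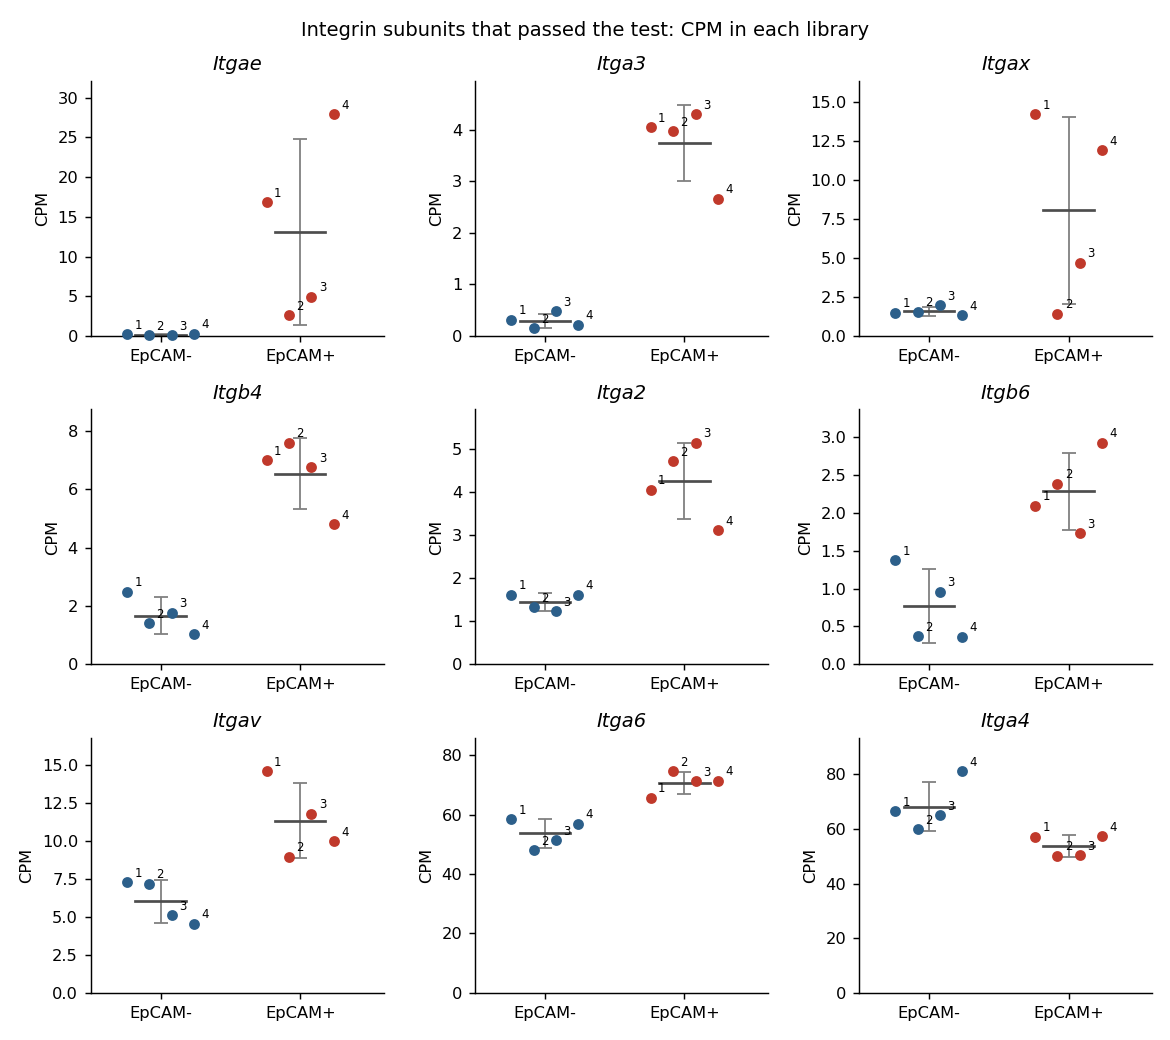
CPM (vertical axes, from 0) of the 9 integrin subunits that passed the test, with EpCAM- libraries in blue and EpCAM+ libraries in red. Each point is a library with its replicate number, and the line and bar give mean and SD of 4. Apart from Itgax, the fractions do not overlap in any panel, and for Itgae and Itgax EpCAM+ replicates 1 and 4 are the highest.

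Itga2b, the alpha chain of the fibrinogen receptor of platelets and megakaryocytes and also a marker of early progenitors, was the most abundant alpha subunit per kilobase of transcript in both fractions. It had 71.1, 96.0, 101 and 110 CPM in EpCAM+ and 88.8, 53.2, 98.2 and 99.6 CPM in EpCAM- libraries. The ranges overlap, and the log2 fold change was 0.15 ± 0.19 (edgeR adjusted p = 0.546, interval -0.27 to 0.58). Itga2b and its partner Itgb3 had their lowest value in the same library, EpCAM- replicate 2, where the megakaryocyte and platelet markers also summed lowest (174 CPM against 381 to 429 CPM in the other EpCAM- and 463 to 738 CPM in the EpCAM+ libraries). What part those markers have in the values was not tested.

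The leukocyte subunits Itgae and Itgax were higher in EpCAM+, and both were highest in EpCAM+ replicates 1 and 4, like the cDC1 markers and some markers of other lists. Itgae (ENSMUSG00000005947, chr11:73090583-73147446) encodes CD103, which with Itgb7 binds E-cadherin and marks cDC1 and intraepithelial T cells. It had 257, 46, 88 and 431 counts in EpCAM+ libraries and 3, 1, 1 and 4 counts in EpCAM- libraries. Every EpCAM+ library was far above every EpCAM- library, but within EpCAM+ the values spanned 2.61 to 27.9 CPM. The log2 fold change was 6.31 ± 0.93 (edgeR adjusted p = 0.000711), the farthest from 0 of the tested members. Itgae passed the count filter only through its EpCAM+ libraries. The pooled CPM ratio was 79.7, with a counting interval of 41.8 to 175. Without EpCAM+ replicate 4 the log2 fold change was 5.62, and without replicates 1 and 4 it was 4.52 (adjusted p = 0.00132). The EpCAM+ libraries that remain in the last fit also had more counts of the cDC1 marker Xcr1 than any EpCAM- library. E-cadherin itself (Cdh1) averaged 10.5 CPM in EpCAM+ and 4.14 CPM in EpCAM- cells.

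Itgax (chr7:128129547-128150657), the CD11c chain of dendritic cells, had 14.2, 1.42, 4.69 and 11.9 CPM in EpCAM+ and 1.5, 1.55, 1.98 and 1.32 CPM in EpCAM- libraries. EpCAM+ replicate 2 lay inside the EpCAM- range, so Itgax passed the test (log2 2.33 ± 0.59, edgeR adjusted p = 0.0101) with overlapping groups. Without EpCAM+ replicates 1 and 4 it no longer did (log2 0.93, adjusted p = 0.159). Itga8, a chain best known from mesenchymal cells of the kidney, did not have enough counts to be tested. It had 49, 7, 15 and 34 counts in EpCAM+ and 0, 0, 0 and 2 in EpCAM- libraries, again with replicates 1 and 4 highest, at a pooled ratio of 45.8 with a counting interval of 12.4 to 383.

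Their beta partners carried a weaker form of the same order. Itgb7 had 147, 40.5, 47.5 and 127 CPM in EpCAM+ and 69.1, 41.7, 34.9 and 52.0 CPM in EpCAM- libraries. EpCAM+ replicates 1 and 4 were above every EpCAM- library and replicates 2 and 3 lay within the EpCAM- range. Itgb7 did not pass the test (log2 0.87 ± 0.40, edgeR adjusted p = 0.102), passed with the replicate block (log2 0.71, adjusted p = 0.0158) and without EpCAM+ replicate 2 (log2 1.11, adjusted p = 0.0296), and turned to -0.17 without EpCAM+ replicates 1 and 4. Itgb2, the common beta chain of leukocyte integrins, had 60.0, 25.3, 31.5 and 74.2 CPM in EpCAM+ and 27.1, 17.6, 23.9 and 37.3 CPM in EpCAM- libraries. It was higher in all 4 numbered pairs while the fractions overlapped. Its log2 fold change was 0.85 ± 0.34 (edgeR adjusted p = 0.0637, with the block 0.0017), and it passed without EpCAM+ replicate 2 (adjusted p = 0.0191), EpCAM+ replicate 3 (0.0481) or EpCAM- replicate 4 (0.0446). Without EpCAM+ replicates 1 and 4 its log2 fold change was 0.10.

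The cDC1 markers moved with these 5 integrin genes. Of the 8 markers, 7 were tested and 6 were higher in EpCAM+, where 21.8% of all tested genes were. The count filter was passed only through EpCAM+ libraries by Xcr1, Clec9a, Batf3, Tlr3 and Cadm1, so this count is a description. Xcr1, the chemokine receptor that defines the cell type, had 2251, 202, 640 and 2018 counts in EpCAM+ and 13, 2, 2 and 7 in EpCAM- libraries, and Clec9a had 420, 22, 92 and 405 against 9, 0, 0 and 2. No cDC1 marker was at 0 in all libraries, and Cd8a was the lowest with at most 4 counts. Leaving out EpCAM+ replicates 1 and 4 lowers this difference but does not remove it, as replicates 2 and 3 had 202 and 640 Xcr1 counts. The part of the dendritic cell markers in the Itgae, Itgax, Itga8, Itgb7 and Itgb2 values was not tested. For Itga3, Itgb4, Itga2 and Itga6 EpCAM+ replicate 2 was above the mean of the EpCAM+ libraries, and their log2 fold changes without replicates 1 and 4 were 3.78, 2.08, 1.75 and 0.43. Itgav had its highest EpCAM+ value in replicate 1 and its lowest in replicate 2, and Itgb6 its highest in replicate 4.

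**Figure D3:**
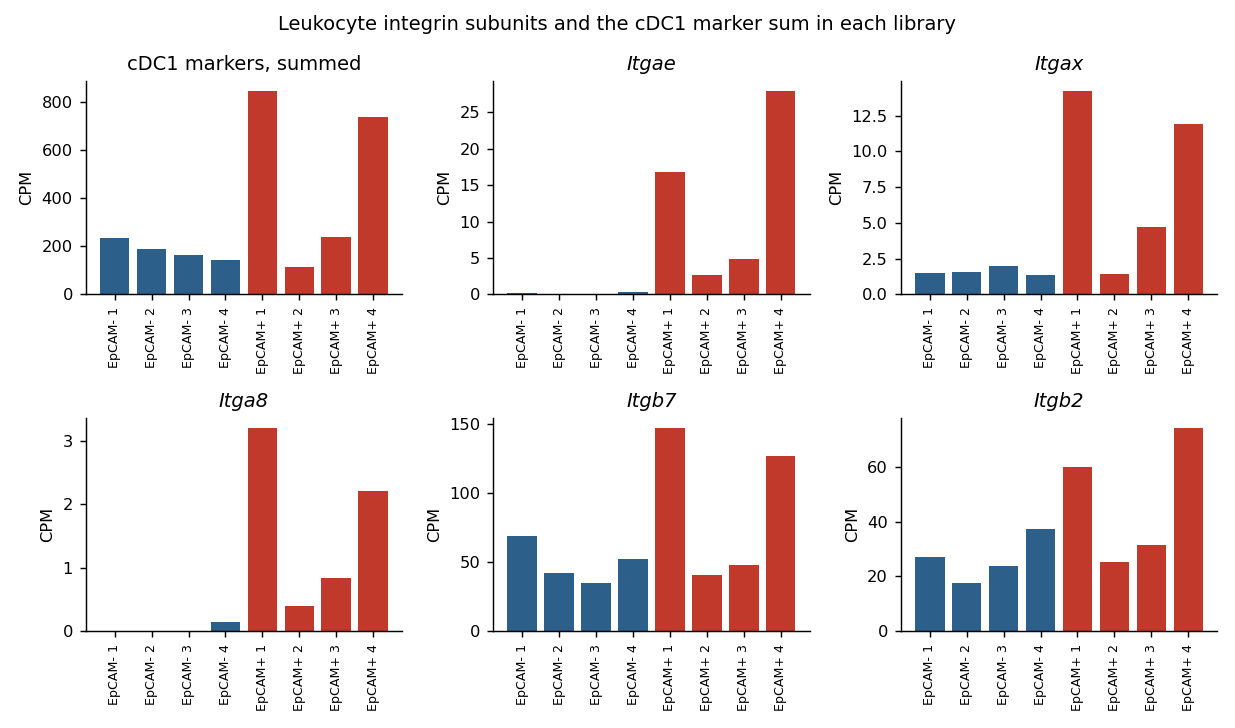
Summed CPM of the 8 cDC1 markers and CPM of Itgae, Itgax, Itga8, Itgb7 and Itgb2 in each of the 8 libraries (vertical axes from 0), EpCAM- in blue and EpCAM+ in red. EpCAM+ replicates 1 and 4 are the highest bars of every panel, and EpCAM+ replicate 2 is the lowest EpCAM+ bar.

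Itga4 and Itga5, the alpha chains of the main receptors for VCAM1 and fibronectin on progenitors, were not higher in EpCAM+. Itga4 (chr2:79255426-79333123), the alpha chain of VLA-4 and of the gut homing receptor with Itgb7, was the only member called lower. It had 57.2, 50.2, 50.4 and 57.3 CPM in EpCAM+ and 66.5, 59.9, 65.1 and 81.1 CPM in EpCAM- libraries. The fractions did not overlap and the shift was small, 0.788-fold (log2 -0.34 ± 0.10, edgeR adjusted p = 0.0201). The call was lost with upper-quartile scaling (adjusted p = 0.0551), without EpCAM+ replicate 2 (0.0528) and without EpCAM+ replicate 3 (0.0589). Itga5, the fibronectin receptor chain, had 20.4, 20.0, 22.9 and 22.3 CPM in EpCAM+ and 23.2, 18.6, 26.0 and 26.3 CPM in EpCAM- libraries. These overlap, with an interval of -0.40 to 0.13 on the log2 scale. Itga9, a relative of Itga4 that also binds VCAM1 and osteopontin, ranged from 2.01 to 4.03 CPM in EpCAM+ and from 1.03 to 2.18 CPM in EpCAM- libraries (log2 0.87 ± 0.33, edgeR adjusted p = 0.0587, with the block 0.0182, and 0.0471 without EpCAM+ replicate 4).

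Itgal, the alpha chain of LFA-1, had 30.2, 18.4, 20.2 and 36.5 CPM in EpCAM+ and 36.5, 33.9, 33.3 and 43.8 CPM in EpCAM- libraries. In each numbered pair the EpCAM+ library was lower, but EpCAM+ replicate 4 lay inside the EpCAM- range and replicate 1 just below it. The log2 fold change was -0.49 ± 0.20 (edgeR adjusted p = 0.0771). It passed with the block (-0.53, adjusted p = 0.00717), without EpCAM+ replicate 4 (-0.69, adjusted p = 0.0155) and without EpCAM+ replicates 1 and 4 (-0.94, adjusted p = 0.00355), so here the libraries rich in cDC1 markers lay on the side of no difference. Itgam, the MAC1 chain on which lineage-positive cells were discarded, had 30 to 56 counts in EpCAM+ and 25 to 85 in EpCAM- libraries, with an interval of -1.17 to 0.42. Of its exon bases, 68.7% are shared with an overlapping gene model on the same strand, Gm49368, which had at most 2 counts in any library. How reads in shared exons were counted is not given in the sources used here, so the Itgam level is uncertain. Itgad had 0 to 10 counts in EpCAM+ and 3 to 10 in EpCAM-, and Itgb2l 0 to 3 and 1 to 10.

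Itgb1, the partner of most matrix-binding alpha chains, was the most abundant beta subunit by CPM and was level between the fractions. It had 194, 182, 191 and 196 CPM in EpCAM+ and 184, 170, 189 and 204 CPM in EpCAM- libraries. The interval of the log2 fold change, -0.13 to 0.19, bounds any difference to a small one. The rise of Itga3 and Itga2, which pair with no other beta chain, and the fall of Itga4 therefore stood beside an Itgb1 level whose fold change lay within that interval.

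Read as shares of the summed beta-chain level per kilobase, Itgb1 made up 37.6, 60.4, 56.3 and 37.8% in EpCAM+ and 53.5, 61.3, 63.8 and 57.4% in EpCAM- libraries. Itgb7 made up 41.9, 19.8, 20.6 and 36.1% in EpCAM+ and 29.7, 22.2, 17.4 and 21.5% in EpCAM- libraries. In EpCAM+ replicate 1 Itgb7 thus exceeded Itgb1, and in replicate 4 it fell just below it. Itgb4 and Itgb6 stayed minor chains in spite of their higher levels, with means of 0.987 and 0.325% in EpCAM+ and 0.309 and 0.138% in EpCAM-. These shares use the gene lengths of the deposited table. With the shorter lengths implied by the deposited FPKM values, Itgb7 exceeded Itgb1 in both EpCAM+ replicate 1 (54.3 against 30.9%) and replicate 4 (48.1 against 32.0%), and still not in the other 6 libraries.

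Among alpha chains, Itga2b took 38.3 ± 6.37% of the summed level per kilobase in EpCAM+ and 39.4 ± 5.23% in EpCAM- libraries (SD, n = 4 each). Itga6 followed in EpCAM+ with 17.5 ± 2.41%, and in EpCAM- Itga6 (15.4 ± 1.63%), Itgal (14.5 ± 1.92%), Itga4 (12.6 ± 1.22%) and Itga5 (12.2 ± 0.54%) were within their spread of a neighbour in that order. Itgae made up 8.33, 1.4, 2.48 and 11.3% of the alpha-chain level in the EpCAM+ libraries and at most 0.145% in any EpCAM- library. Itga3, with the second largest fold change of the tested members, stayed a minor chain at 1.48 ± 0.415% and 0.128 ± 0.0561%. With the lengths implied by the FPKM values, Itga2b took 51.0 and 52.3%, Itgae 2.87, 0.429, 0.769 and 3.83% in the EpCAM+ libraries, and Itga3 0.841% in EpCAM+. The EpCAM- order after Itga2b was then Itga6 (16.8 ± 2.2%), Itga4 (12.9 ± 1.58%), Itgal (6.75 ± 1.07%) and Itga5 (6.63 ± 0.322%), in which Itgal stood well below Itga4.

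**Figure D4:**
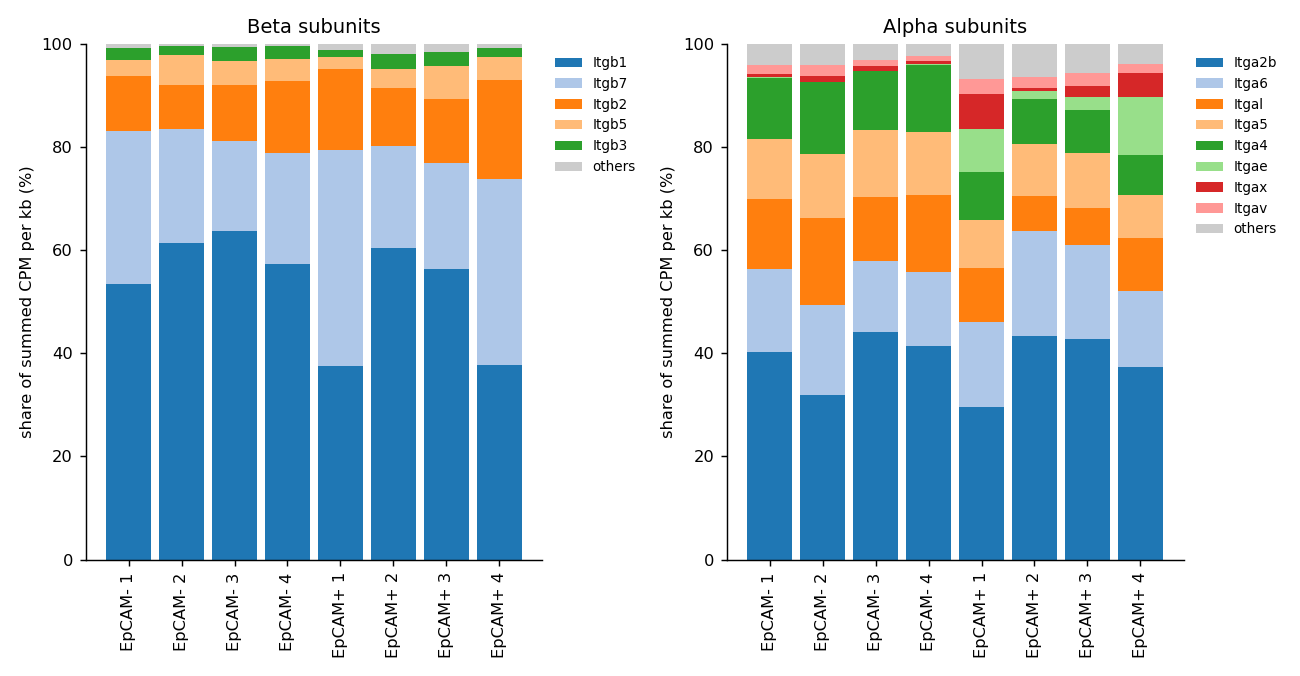
Share of each subunit in the summed CPM per kilobase (vertical axes, %) of beta chains (left) and alpha chains (right) in each library, with deposited gene lengths. Itgb7 has its largest shares in EpCAM+ replicates 1 and 4 (41.9 and 36.1%), where those of Itgb1 are smallest, and the light green Itgae band is visible only in the EpCAM+ bars.

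Of the cytoplasmic linkers, the 5 tested did not pass in the fit that gave the 8 higher members and 1 lower member. Fermt3, the kindlin of blood cells, was the most abundant member by CPM. It had 462, 472, 477 and 496 CPM in EpCAM+ and 486, 407, 519 and 538 CPM in EpCAM- libraries. The log2 fold change was -0.03 ± 0.09, with an interval of -0.23 to 0.17, and it turned to 0.06 with upper-quartile scaling. The epithelial kindlin Fermt1 had 0 to 2 counts in EpCAM+ and 0 in EpCAM- libraries, and the widely expressed Fermt2 had 0 to 4 and 0. At 0 of 14114491 counts, the shallowest EpCAM- library would allow up to 0.222 CPM of either. Neither gene passed the count filter, and no fold is given.

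Tln1, the talin that switches integrins to their active form, had 233, 212, 267 and 240 CPM in EpCAM+ and 224, 174, 209 and 191 CPM in EpCAM- libraries. Each EpCAM+ value was above the EpCAM- value of its number, by 0.06 to 0.35 on the log2 scale of CPM plus 0.5. The fit gave 0.26 ± 0.10 (edgeR adjusted p = 0.0547, with the block 0.00997), and it passed without EpCAM+ replicate 2 (0.0384) or EpCAM- replicate 1 (0.0288). Pxn, an adaptor of focal adhesions, showed the same small shift, with 57.2, 51.2, 60.7 and 59.7 CPM in EpCAM+ and 53.8, 40.0, 51.8 and 46.0 CPM in EpCAM- libraries (log2 0.26 ± 0.10, edgeR adjusted p = 0.0692, with the block 0.0181, and 0.04 without EpCAM- replicate 1). Tln2, the talin of muscle and neurons, had 2 to 11 counts in EpCAM+ and 2 to 5 in EpCAM- libraries.

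Vcl, which reinforces the link of talin to actin, had 9.87, 13.0, 13.0 and 12.1 CPM in EpCAM+ and 14.0, 9.84, 14.4 and 19.0 CPM in EpCAM- libraries. The fractions overlap (log2 -0.26 ± 0.19, edgeR adjusted p = 0.294), and 25.5% of the exon bases are shared with Ap3m1 on the opposite strand. Ilk, a scaffold that binds beta tails and kindlins, was listed at only 14 to 29 counts in EpCAM+ and 13 to 19 in EpCAM- libraries. Of its exon bases, 89.7% are also covered by Taf10 and Rrp8 on the opposite strand, which had 2058 to 3075 and 677 to 1130 counts, and with no strand setting given in the sources used here the low Ilk level is uncertain.

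**Figure D5:**
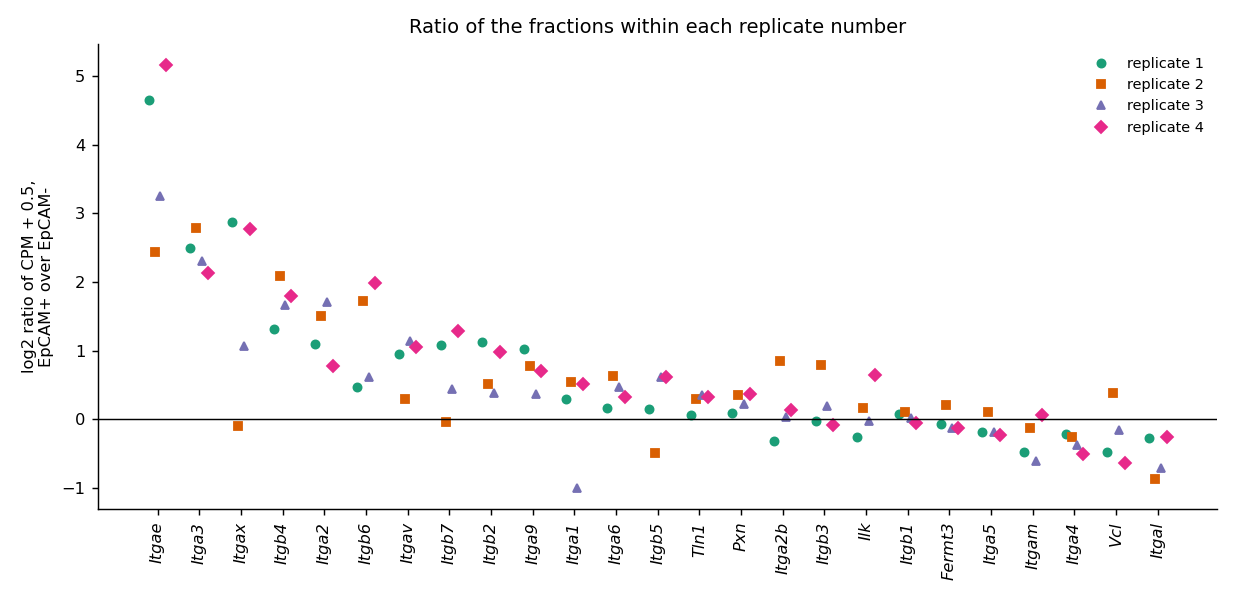
Log2 ratio of CPM plus 0.5 (EpCAM+ over EpCAM-, vertical axis) between libraries of the same replicate number, for the 25 tested genes in order of their median. Itgae, Itga3, Itgb4, Itga2, Itgb6, Itgav, Itgb2, Itga9, Itga6, Tln1 and Pxn lie above 0 in all 4 numbers, and Itga4 and Itgal lie below 0 in all 4.

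Other genes of integrin adhesion were counted in 6 lists drawn up beside the members. The lists were chosen with earlier results of these data known, so their shares are a description and no independent test. Some of their higher genes also passed the count filter only through EpCAM+ libraries, which raises the higher shares. Among these were the ligands Lama5, Lamb2 and Jam2, the activators Rasgrp3 and Skap1, and the linkers Tns2 and Fblim1. Of their 148 genes 113 were tested, with 49 higher and 5 lower in EpCAM+ and 59 that did not pass, at a median log2 fold change of 0.25. That is 47.8% called against 42.6% of all tested genes. The ligand list had 17 of 39 genes tested, of which 12 were higher (70.6%, against 21.8% of all tested genes) and 1 lower, at a median of 1.29. Without EpCAM+ replicates 1 and 4, 11 were higher, where 13% of all genes tested in that fit were. Its higher genes with the smallest adjusted p were F11r, the junctional adhesion molecule that binds LFA-1 (91.4 ± 5.26 against 28.8 ± 8.69 CPM), Spp1, the osteopontin that binds Itgav, Itga4 and Itga9 (15.4 ± 3.48 against 3.60 ± 1.13 CPM), and Col4a2, a chain of basement membrane collagen (17.1 ± 2.50 against 3.70 ± 1.53 CPM). Their log2 fold changes were 1.66, 2.08 and 2.20. The lower gene was Icam2, a ligand of LFA-1, at 115 ± 6.01 against 140 ± 12.5 CPM, whose call was lost with upper-quartile scaling, with library totals and without EpCAM+ replicates 1 and 4.

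Of the 16 tested genes that act before talin, 6 were higher (37.5%, against 21.8% of all tested genes) and 1 lower, at a median log2 fold change of 0.15. Only 2, Rasgrp3 and Rapgef4, were higher without EpCAM+ replicates 1 and 4, where 13% of all genes tested in that fit were. Rasgrp3, an activator of Rap1, had 355, 52, 100 and 259 counts in EpCAM+ and 4, 5, 2 and 2 in EpCAM- libraries, with replicates 1 and 4 highest as for Itgae (log2 5.70, and 4.19 without those libraries). Rapgef4, another Rap1 activator, rose (log2 1.23 ± 0.21, edgeR adjusted p = 0.00152) while its relative Rapgef3 fell (log2 -0.88 ± 0.23, edgeR adjusted p = 0.0119). Skap1, an adaptor of inside-out signaling in T cells, was the third of the higher genes by p (log2 1.88, edgeR adjusted p = 0.00488, and 0.0698 without EpCAM+ replicates 1 and 4). Of 12 tested inhibitors 4 were higher (33.3%, against 21.8% of all tested genes) and 0 lower, at a median of 0.12. Only 2 were higher when EpCAM+ replicate 1, EpCAM+ replicate 2 or EpCAM- replicate 2 was left out, when EpCAM+ replicates 1 and 4 were, and when all genes with 1 count in any library were kept. The 3 with the smallest adjusted p were Cytip, which holds back cytohesin 1 (log2 0.80), Rasa3, which turns off Rap1 (log2 0.47), and Rap1gap (log2 0.98, with an adjusted p of 0.175 without EpCAM+ replicates 1 and 4).

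In the adhesion linker list 11 of 26 tested genes were higher (42.3%) and 1 lower, at a median of 0.38. Over all tested genes 21.8% were higher and 20.8% lower. The higher count was 7 without EpCAM+ replicate 1 or without EpCAM- replicate 3, and 6 without EpCAM+ replicates 1 and 4. In that last fit the share of higher genes fell over all tested genes too, to 13%. Sorbs3 (vinexin, a vinculin partner; log2 1.00), Actn1 (an actin crosslinker; log2 1.47) and Lpp (a zyxin relative; log2 1.37) had the smallest adjusted p among the higher genes. Rsu1, a member of the Ilk complex, was 203 ± 11.2 against 233 ± 2.07 CPM and the lower gene, a call lost with upper-quartile scaling, with library totals, with a filter of 1 count in any library, without EpCAM+ replicate 3 or 4 or EpCAM- replicate 3, and without EpCAM+ replicates 1 and 4. Downstream, 13 of 30 tested signaling genes were higher (43.3%, against 21.8% of all tested genes) and 1 lower, at a median of 0.23. Without EpCAM+ replicates 1 and 4, 7 of these 30 were higher, where 13% of all genes tested in that fit were. The whole signaling list had 8 higher in that fit, which also tests genes left out of the full fit. The Src family kinases Yes1 (4.69 ± 0.966 against 0.705 ± 0.138 CPM, log2 2.72 ± 0.26) and Fyn (log2 0.63) and the Rac activator Dock2 (log2 0.61) rose, and the Arf GTPase-activating protein Asap1 fell (log2 -0.60 ± 0.07, edgeR adjusted p = 0.000326). Of 12 tested trafficking genes 3 were higher (25.0%, near the 21.8% of all tested genes) and 1 lower, at a median of -0.07. The lower count was 3 with the block and 2 without EpCAM- replicate 4. Eps8 (log2 1.26), Acap1 (log2 0.63) and Rab11a, of the slow recycling route (log2 0.45), rose, and Rab4a, of the fast route, fell from 63.8 ± 23.3 CPM in EpCAM- to 28.2 ± 2.36 CPM in EpCAM+ cells (log2 -1.18).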

How the data were processed

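RNA of sorted Zeb1-/- LSK cells was amplified with SMART-Seq v4. Per the submitters' processing notes, the authors aligned reads with STAR 2.6.1d to GRCm38.p6, counted them with featureCounts 1.5.0-p3 and used DESeq2 1.20.0. Strand setting, treatment of multi-mapping reads and annotation release are not given in the sources used here. The deposited table holds raw counts, which were tested here, and FPKM values of the authors, used only for the gene length they imply. Its columns of the authors' own comparisons (log ratios with raw and adjusted p-values, for all libraries and for 4 pairs of single libraries) were not used.

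Counts were tested in R 4.3.3 with edgeR 4.0.16 (filterByExpr, TMM, quasi-likelihood F test over 13560 genes, Benjamini-Hochberg, threshold 0.05). The filter also admits genes with enough counts in only a single fraction. Members such as Itgae, Itga3 and Itgb6 passed it only through their EpCAM+ libraries. CPM are scaled with the TMM factors. The labels do not say whether equal replicate numbers mark the same mouse, but libraries of the same number deviated together (correlation of deviations 0.205 to 0.356 over the 4 pairs, -0.216 to 0.0396 between different numbers), so the fit with the number as a block is given where it changes a call. P-values measure the spread between these libraries. Libraries of a fraction differed beyond counting noise (lowest chi-square per degree of freedom 10.6). In counts simulated for this comparison over 13378 genes, the test recovered 156 of 200 genes changed 2-fold, with 4 false calls among 160. No other gene was changed, the changed genes excluded those of low counts, and the libraries were drawn independently. These rates therefore do not carry over to the real comparison, where 42.6% of tested genes were called, or to members near 0. The difference in library totals did not pass an exact two-sided permutation test (p = 0.114, smallest possible 0.0286). All 35 members have the span of GENCODE M21, and 34 its summed exon length (not Fermt3).

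The members, the 6 pathway lists and the 16 cell type lists were chosen with earlier results of these data known. Values in every library are given for members that passed or reached 10 CPM in a fraction, and of each pathway list up to 3 genes a direction with the smallest adjusted p are named. Alternatives were DESeq2 1.42.0, other scalings and filters, the block, and each library left out in turn. The removal of EpCAM+ replicates 1 and 4 together and the FPKM-implied lengths were chosen after seeing the data.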

Additional observations from a re-analysis of the deposited data

Results flagged for a closer look

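In EpCAM+ replicate 1 Itgb3 was at 10.9 CPM, below the other 3 EpCAM+ libraries, which lay between 13.0 and 13.3 CPM. The gap to the next library was 0.867 of the group's range, above the 95% critical value of Dixon's test for 4 samples. It was the only flag among 50 groups examined, where chance flags about 1 group in 20, and the EpCAM- libraries spanned 7.33 to 13.8 CPM.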

How the results depend on the processing

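The count of higher members was 8 and lay between 8 and 12 over the 8 fits that left out 1 library. It was 13 with the replicate block, which added 6 calls and changed no other call of a member. The count of lower members was 1 and rested on Itga4: it was 0 with upper-quartile scaling, 0 to 2 over the fits without 1 library, and 2 with DESeq2, with the block and without EpCAM+ replicates 1 and 4, and the cause was not tested. Without these 2 libraries 1819 genes were higher and 1856 lower of all tested (2961 and 2818 in the full fit), and 35 pathway genes were called in place of 54, with fewer samples in the fit. The 35 include genes tested only in the smaller fit, and of the pathway genes tested in the full fit 31 were higher and 3 lower. Signs turned only for members that had not passed. Over the fits without 1 library, Itga1 (0.04 in the full fit) ran from -0.51 (without EpCAM+ replicate 1) to 0.39, with -0.15, -0.37 and -0.03 without EpCAM+ replicate 4, EpCAM- replicate 2 and EpCAM- replicate 4. Itga2b ran from -0.03 to 0.26 and Itgb1 from -0.02 to 0.07, both lowest without EpCAM- replicate 2. Fermt3 ran from -0.12 to 0.01 (without EpCAM- replicate 4), and Ilk from -0.05 (without EpCAM+ replicate 4) to 0.33. Without EpCAM+ replicates 1 and 4, Itga1 was at -1.41, Itgb1 at 0.00 and Itgb7 at -0.17. Fermt3 was at 0.06 with upper-quartile scaling and 0.05 with library totals. Of the 10 untested members only Itga8 passed when genes with 1 count in any library were kept (log2 5.26, adjusted p = 0.00101). A count of 0 allows up to 3 counts, which is 0.168 to 0.222 CPM a library, and differences under that level cannot be seen.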
